A study of Homo sapiens with 45 samples.

Results

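A single array of the series carries RNA from A375 cells transfected with an siRNA pool against CTNNB1, the gene of beta-catenin. A375 is an established human melanoma line. The array was chosen by its label and is 1 of the 45 arrays, 1 of the 39 with a targeting siRNA and 1 of the 9 that the study placed in knockdown batch KD1. It was set against the other 8 arrays of that batch, whose siRNAs targeted CDC2, CDC25B, CDK7, FOXO3A, HSF2, PCNA, RB1 and TCEA1. Each of these siRNAs was used in 1 culture with 1 array, so the siRNA-CTNNB1 array has no replicate and the comparison arrays are themselves knockdowns. The siRNA-CONTROL group (3 arrays, an inactive siRNA that carries a fluorescent label) and the untreated group (3 arrays) serve as further comparisons, but their batch is not given. RNA was harvested at 48 h. Sample labels put the siRNA at 100 nM, and the methods state a lower concentration.

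Beta-catenin has a structural and a signalling role. At the membrane it ties cadherins, through alpha-catenin, to the actin skeleton of adherens junctions. In the cytosol a destruction complex of APC, AXIN, casein kinase and GSK3 marks it for degradation, and Wnt ligands acting on Frizzled and LRP receptors block that complex, after which beta-catenin enters the nucleus and acts with TCF/LEF factors on target genes. In melanocytes and melanoma the pathway is known for its link to MITF, the lineage transcription factor.

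CTNNB1 was lower in the siRNA-CTNNB1 array than in each of the 44 others, by 1.62-fold from the median of the KD1 comparison arrays. Few other transcripts stood apart. Of 4800 genes above the noise limit, 1 was higher (CXCL8) and 4 were lower (SERPINF1, SLCO4A1-AS1, CTNNB1 itself and RASEF) by at least 1.5-fold and outside the range of the other 8 KD1 arrays. Of 17 measured feedback targets of Wnt signalling, only 5 were above noise. All 5 lay within the range of those 8 arrays, but only 20% of all genes above noise lay outside it.

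The pathway acts on DNA through the TCF/LEF core motif, so 3 stretches of promoter that hold it are shown, for a feedback target, for the lineage factor and for the gene above noise that differed upwards the most. They are RefSeq sequences of build GRCh38.p14 on the plus strand, and capitals mark ATCAAAG or its reverse complement CTTTGAT.
SP5 (chr2:170715188-170715274): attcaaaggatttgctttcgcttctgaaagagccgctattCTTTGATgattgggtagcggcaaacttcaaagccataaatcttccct
MITF (chr3:69936348-69936434): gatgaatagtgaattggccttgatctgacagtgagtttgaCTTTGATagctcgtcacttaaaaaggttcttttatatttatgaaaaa
CXCL8 (chr4:73740335-73740421): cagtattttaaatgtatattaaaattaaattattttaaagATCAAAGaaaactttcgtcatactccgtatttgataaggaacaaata

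The motif begins 109 bases before the annotated start of SP5, 204 before that of MITF and 194 before that of CXCL8. Windows of 250 bases before to 50 bases after each start were searched on both strands, and the reverse complement counts as the same motif. Of 35116 such windows in the RefSeq table, 2.62% hold it. MITF has more than 1 annotated start in the table, and the stretch belongs to one of them. These matches describe the letters and were not read as binding sites. In the siRNA-CTNNB1 array SP5 had a log2 value of 4.10, far below the noise limit, and MITF had 9.21, against a median of 9.23 in the other KD1 arrays. CXCL8 is described further on.

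The values are RMA-normalised intensities, taken to log2, from Affymetrix U133 plus 2.0 arrays. The array medians were 5.06 to 5.15 on the log2 scale, with 5.07 in the siRNA-CTNNB1 array. The noise limit, a log2 value of 8.59, is 1.5 times the median signal of BioB (3' probe set), a spiked-in bacterial control. Above that limit the genes of the siRNA-CTNNB1 array lay a median of 0.05 higher than the KD1 median, the highest of the 9 arrays, whose other 8 medians ran between -0.06 and 0.03. The third siRNA-CONTROL array and the third untreated array are near copies, with 95.4% of probe sets of the control array within 10% of the untreated one. Of 14 melanoma and mesenchymal markers, 9 were above noise, among them SOX10 (11.78 in the siRNA-CTNNB1 array), S100B (9.96) and MITF. The pigment cell products PMEL (5.67), MLANA (3.77), TYR (5.56) and TYRP1 (3.12) were below it. None of 24 leukocyte markers or 14 fibroblast and endothelial markers was above noise, and of 12 keratinocyte markers only KRT10 was.

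The first question for a knockdown array is how far the targeted transcript fell. CTNNB1 is measured by 3 probe sets, of which only 201533_at was above noise. Its log2 value was 8.53 in the siRNA-CTNNB1 array, against 9.18 with siRNA-CDC2, 9.16 with siRNA-CDC25B, 9.11 with siRNA-CDK7, 9.11 with siRNA-FOXO3A, 9.33 with siRNA-HSF2, 10.23 with siRNA-PCNA, 9.26 with siRNA-RB1 and 9.35 with siRNA-TCEA1. All 8 comparison arrays lay above the siRNA-CTNNB1 array, and the siRNA-PCNA array stood apart as the highest of all 45. The difference from their median of 9.22 was -0.69, set against an SD of 0.37 among the 8.

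In the other arrays the transcript also lay above the level of the siRNA-CTNNB1 array. The siRNA-CTNNB1 value of 8.53 compares with 8.99 to 9.95 (median 9.30) in the 23 KD2 arrays and 9.35 to 9.75 (median 9.60) in the 7 KD3 arrays. It compares with 9.11, 9.35 and 9.51 in the siRNA-CONTROL arrays and with 9.49, 9.34 and 9.39 in the untreated arrays. Relative to the group means, CTNNB1 was lower by 0.80 than in siRNA-CONTROL (9.32 ± 0.20, SD, n = 3) and by 0.88 than in untreated cells (9.40 ± 0.08, SD, n = 3). The batches and control groups thus do not overlap with the siRNA-CTNNB1 array.

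The one-sided exact rank test gave p = 0.111 among the 9 KD1 arrays and p = 0.0222 among all 45, in both cases the smallest p that so many arrays allow. The 45 include batches with different CTNNB1 medians, control arrays whose batch is not given and a pair of near copies. The rank test over all 45 treats them as alike and separate, so its p is a limited guide. In limma, which takes the lone array to vary like the 8 others, the log2 difference was -0.81 with a standard error of 0.31 and a Benjamini-Hochberg adjusted p of 0.831 over all probe sets. Without the siRNA-PCNA array the limma difference was -0.69 with a standard error of 0.16 (adjusted p = 0.718). With all 39 siRNA arrays and batch as a factor the adjusted p from limma was 0.106.

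The remaining probe sets of CTNNB1 were below noise and did not move alike. Probe set 1554411_at read 3.18 in the siRNA-CTNNB1 array, against 3.26 to 3.69 in the other KD1 arrays. Probe set 223679_at read 7.08 in the siRNA-CTNNB1 array, against 6.33 to 7.09 in the others, a difference of 0.23 in the opposite direction. The knockdown therefore rests on 1 probe set, read near the noise limit. RNA came from whole cultures, so a fall in all cells and a deeper fall in a part of them cannot be told apart. JUP, the gene of plakoglobin, the armadillo protein most like beta-catenin, was below noise with 6.12 in the siRNA-CTNNB1 array and 5.59 to 6.58 in the other KD1 arrays.

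**Figure D1:**
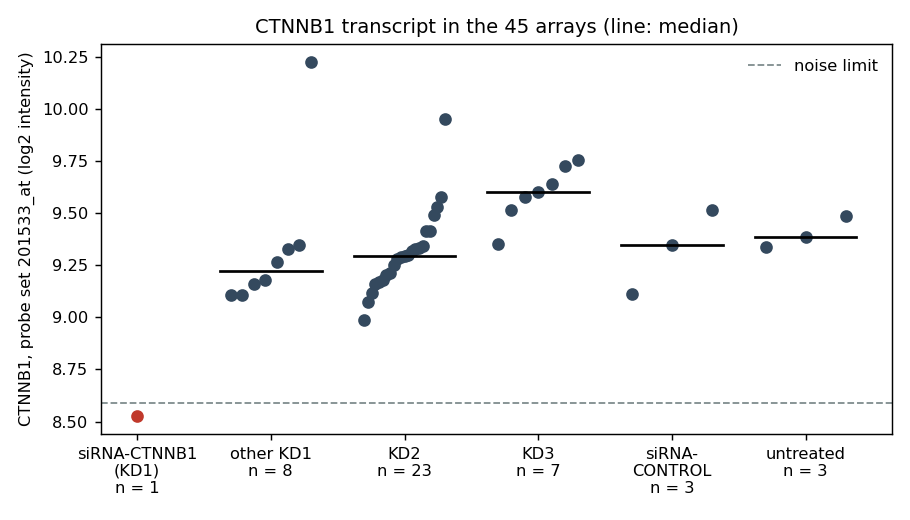
CTNNB1 level (log2 intensity of probe set 201533_at) in each of the 45 arrays, by batch or control group, with the group median as a line and the noise limit dashed. The siRNA-CTNNB1 array, at 8.53, lies below all 44 other arrays and just under the limit, and the siRNA-PCNA array, at 10.23, is the highest.

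The same measure was taken for the targets of the other KD1 siRNAs, of which HSF2 had no probe set with a single gene name. Beside -0.69 for CTNNB1 in its own array stand -0.99 for CDK1 (siRNA-CDC2), -1.01 for FOXO3 (siRNA-FOXO3A), -1.27 for CDK7, -1.34 for PCNA, -1.55 for TCEA1, -1.56 for CDC25B and -1.80 for RB1. Each of these 8 targets was lowest of the 9 arrays in its own array, and CTNNB1 had the least negative reading. Probe sets differ in how far their values can fall, so these readings were not tested against each other.

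The siRNA-CTNNB1 array also had the fewest genes past 1.5-fold. At this threshold 0.0208% of the genes above noise were higher than in all 8 other KD1 arrays and 0.0833% were lower. The rule called 5 genes in the siRNA-CTNNB1 array, against 7 with siRNA-CDC25B, 7 with siRNA-FOXO3A, 11 with siRNA-CDC2, 12 with siRNA-HSF2, 16 with siRNA-TCEA1, 17 with siRNA-CDK7, 46 with siRNA-RB1 and 56 with siRNA-PCNA. With 1 comparison array left out, the higher genes became 2 or 3 without siRNA-CDC2, siRNA-CDC25B, siRNA-CDK7, siRNA-HSF2, siRNA-RB1 or siRNA-TCEA1, joined by DUSP10, LYPLA1 or ABCB10. By other measures the array was not the quietest. At 1.3-fold it had 54 higher and 18 lower genes, more in all than siRNA-CDC25B (37 and 17) and siRNA-HSF2 (12 and 52). The SD of its differences from the other 8 was 0.15 on the log2 scale, and the SDs of the other KD1 arrays ran between 0.14 and 0.20.

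**Figure D2:**
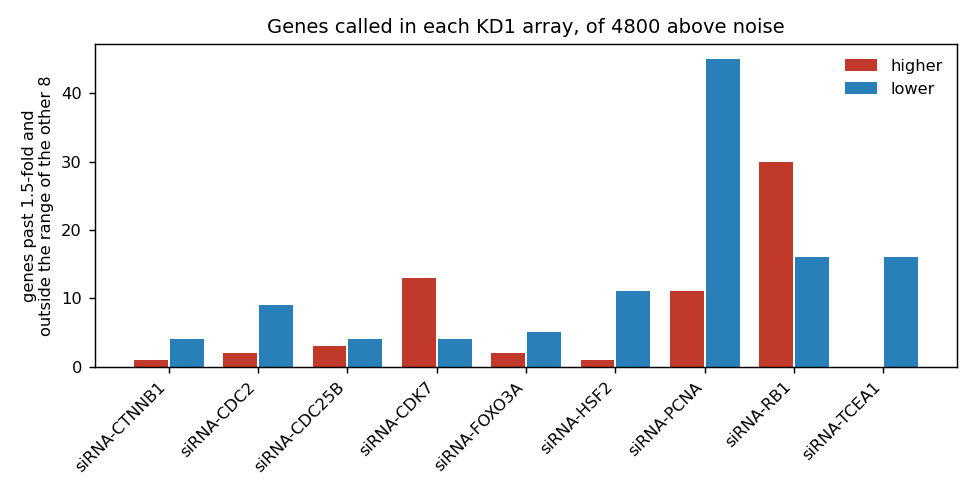
Number of genes at least 1.5-fold from the median of the remaining 8 arrays and outside their range, higher and lower, in each KD1 array. The siRNA-CTNNB1 array has 1 higher and 4 lower genes, and the siRNA-PCNA array has 11 and 45.

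The gene higher past 1.5-fold was CXCL8, the chemokine interleukin-8. Its log2 value was 9.06 in the siRNA-CTNNB1 array, against 8.75 with siRNA-CDC2, 8.63 with siRNA-CDC25B, 8.41 with siRNA-CDK7, 8.27 with siRNA-FOXO3A, 8.10 with siRNA-HSF2, 7.95 with siRNA-PCNA, 8.06 with siRNA-RB1 and 7.79 with siRNA-TCEA1. The siRNA-CTNNB1 array lay above all 8, with a difference of 0.87 from their median (1.83-fold), and 6 of the 8 were below the noise limit. The main probe set, 202859_x_at, is of the Affymetrix x type, whose probes may also bind other transcripts, and a second, dimmer probe set (211506_s_at) differed by 1.33 and was likewise above all 8. In the control groups CXCL8 read 8.08, 8.23 and 10.50 in siRNA-CONTROL and 7.74, 8.44 and 10.55 in untreated cells. The siRNA-CTNNB1 value fell inside both ranges, but only through the third arrays (10.50 and 10.55), which are near copies. It lay above every other control array. The limma adjusted p was 0.803.

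SERPINF1, which encodes the secreted anti-angiogenic factor PEDF, had the most negative difference of the genes above noise. Its log2 value was 7.13 in the siRNA-CTNNB1 array, against a lowest of 7.52, a median of 7.97 and a highest of 8.27 in the other KD1 arrays. The difference was -0.84 (1.79-fold lower), and the array was the lowest of all 45. Against the control groups the distance was larger, with 8.04, 9.17 and 9.84 in siRNA-CONTROL and 9.01, 8.82 and 9.75 in untreated cells. All 9 KD1 arrays were below the noise limit for this gene, which passed it through its median over the 45 arrays. The limma adjusted p was 0.718.

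SLCO4A1-AS1, a long non-coding RNA named for its position antisense to a transporter gene, had 7.61 in the siRNA-CTNNB1 array, against a lowest of 7.93, a median of 8.32 and a highest of 8.69 in the other KD1 arrays. It too was lowest of all 45 arrays, with 8.32, 8.74 and 9.66 in siRNA-CONTROL and 8.82, 8.69 and 9.52 in untreated cells. The difference from the KD1 median was -0.72 (limma adjusted p = 0.759). In 7 of the 9 KD1 arrays, the siRNA-CTNNB1 array among them, it was below the noise limit.

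RASEF, an atypical Rab GTPase gene, had 8.78 in the siRNA-CTNNB1 array, against a lowest of 9.16, a median of 9.42 and a highest of 9.76 in the other KD1 arrays. The difference was -0.64 (1.55-fold lower, limma adjusted p = 0.737). Unlike SERPINF1 and SLCO4A1-AS1, RASEF did not stand apart from the controls, which read 9.47, 8.73 and 8.45 in siRNA-CONTROL and 9.21, 8.63 and 8.55 in untreated cells, and the siRNA-CTNNB1 array ranked 17 from the lowest of the 45. RASEF has 5 probe sets, and the other 4 were below noise. Of these, 1553186_x_at differed by -0.74, and the 3 dimmest by -0.22, 0.18 and -0.14. RASEF was no longer called with the median over its probe sets, where it differed by -0.042, nor against the 38 other siRNA arrays after batch centring (-0.62, inside their range).

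**Figure D3:**
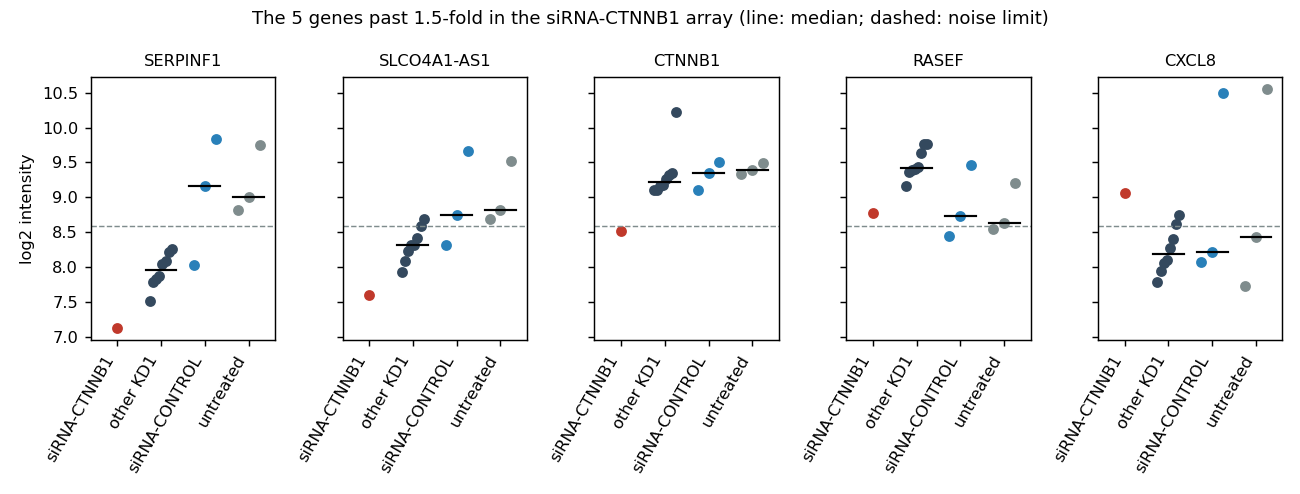
Log2 intensity of the 5 genes past 1.5-fold in the siRNA-CTNNB1 array, the other 8 KD1 arrays, the 3 siRNA-CONTROL and the 3 untreated arrays, with the group median as a line and the noise limit dashed. CTNNB1, SERPINF1 and SLCO4A1-AS1 lie below every other array plotted, while for RASEF the siRNA-CTNNB1 value falls within the control arrays. For CXCL8 it lies above all control arrays except the third of each group, which are near copies.

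Across all probe sets limma called 2 of 54613 at an adjusted p under 0.05 (0.00366%), and neither was above noise. These were 229547_s_at of WNK2, a kinase gene, with 6.28 in the siRNA-CTNNB1 array and 5.00 to 5.25 in the other KD1 arrays, and 217462_at of MYRF, a transcription factor gene, with 5.55 in the siRNA-CTNNB1 array and 4.21 to 4.48 in the others. In both the array lay above all 8, by 1.24 and 1.23 from their medians, at a limma adjusted p of 0.0432 each. Without the siRNA-HSF2 array limma called 4 probe sets, and without any other single comparison array it called 0. With all 39 arrays and batch as a factor, limma called 289 probe sets, of which 4 were above noise. They included 207749_s_at of PPP2R3A, a regulatory subunit of phosphatase PP2A (difference from the KD1 median -0.64), and 218278_at of WDR74, a ribosome assembly gene (0.56). The others were 229595_at of CHCHD4, a mitochondrial import gene (0.50), and 216532_x_at, which has no single gene name (0.46). PPP2R3A and WDR74 were each represented by another probe set of higher mean, and neither gene was called at 1.5-fold or 1.3-fold. With the median over its probe sets PPP2R3A was called lower at 1.5-fold.

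A lower threshold of 1.3-fold, chosen after the few calls at 1.5-fold had been seen, took in 54 higher genes (1.12% of those above noise) and 18 lower ones (0.375%). The genes named from it were likewise chosen after their values were seen. IDH1, the cytosolic isocitrate dehydrogenase, had 11.54 in the siRNA-CTNNB1 array, against 10.94 to 11.12 in the other KD1 arrays. NFE2L2, the oxidative stress factor NRF2, had 10.77 in the siRNA-CTNNB1 array, against 10.15 to 10.43. DAZAP2, a small adaptor reported to bind TCF factors, had 11.11 in the siRNA-CTNNB1 array, against 11.47 to 11.60. In each of these the gap to the nearest of the 8 arrays exceeded the whole range of the 8.

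Further probe sets above noise existed for 14 of the 54 higher genes at 1.3-fold and for 6 of the 18 lower genes. None of the 5 genes called at 1.5-fold had one. Of 19 such probe sets for higher genes 18 differed in the same direction, and so did 9 of 9 for lower genes. Over all genes above noise 1243 of 1935 (64.2%) did, a share that includes small differences and so is no matched background. Probe sets of a gene read the same RNA of the same culture, so their agreement bears on the measurement and not on the culture. Comparisons with the control groups use the same single siRNA-CTNNB1 array, so they are no second measurement. The 54 higher genes had a median difference of 0.42 from the KD1 median, 0.29 from the siRNA-CONTROL mean and 0.27 from the untreated mean. For the 18 lower genes the medians were -0.43, -0.49 and -0.44, beside 0.05, 0.08 and 0.08 over all genes above noise. IDH1 and NFE2L2 stood at -0.10 each from the siRNA-CONTROL mean, opposite to their KD1 direction, and DAZAP2 at -0.32. That mean includes the third siRNA-CONTROL array, which is near a copy of an untreated one. NFE2L2 read 11.54 in it and 10.42 and 10.66 in the other siRNA-CONTROL arrays, so the siRNA-CTNNB1 value of 10.77 lay above these others. For IDH1 the siRNA-CTNNB1 value lay between these others, at 11.19 and 11.61. In the limma fit to the 9 KD1 arrays no 1.3-fold gene passed, with a smallest adjusted p of 0.718.

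Lowering the noise limit to a median log2 value of 6 called 39 higher genes (0.371% of 10521) and 41 lower genes (0.39%) at 1.5-fold. Among the dim genes, C3, a complement component, had 6.73 in the siRNA-CTNNB1 array, against 7.15 to 8.14 in the other KD1 arrays. ABCC3, a drug transporter gene, had 5.93 in the siRNA-CTNNB1 array, against 6.26 to 7.19. GEM, a small GTPase gene, had 8.12, against 7.04 to 7.66. These genes were named after their values were seen, and at these levels the array's noise is part of the reading.

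The transcriptional output of the pathway was read from 17 measured feedback targets, genes that Wnt signalling induces in many tissues and that mostly dampen it. They showed no common direction within KD1. Of the 17, 8 were higher and 9 were lower than the KD1 median, and the list median was -0.00, beside 0.01 over all 19775 genes, and 5th lowest of the 9 KD1 arrays. Only 5 were above noise, and all 5 lay within the range of the other 8 arrays, where 14.7% of all genes above noise lay higher than all 8 and 5.31% lower.

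LEF1, a TCF/LEF factor that is itself a target, had 9.91 in the siRNA-CTNNB1 array, against 9.67 to 10.25 in the other KD1 arrays. SFRP1, a secreted Wnt antagonist, had 11.34, against 11.31 to 11.69, a difference of -0.13. DKK1, an antagonist that binds LRP receptors, had 10.10, against 9.47 to 10.79. BAMBI, a decoy receptor (difference 0.04), and TNFRSF19 (-0.03) lay close to the KD1 median. AXIN2, the feedback target most used as a readout, was below noise at 4.99 in the siRNA-CTNNB1 array and 4.66 to 5.13 in the other KD1 arrays, as were NKD1 (5.54) and LGR5. At such levels a fall could not have been measured. Against the means of the siRNA-CONTROL and untreated groups all 5 targets above noise were higher, as were 2963 and 2964 of all 4800 genes above noise. LEF1 differed by 0.33 from the siRNA-CONTROL mean and 0.25 from the untreated mean, SFRP1 by 0.47 and 0.39, TNFRSF19 by 0.37 and 0.20, DKK1 by 0.48 and 1.205 and BAMBI by 1.10 and 1.01. The medians of the whole list were 0.21 and 0.15, and the batch of the control arrays is not given. Both means include the third arrays, which are near copies. SFRP1 read 9.77 and 9.63 in them, but 11.38 and 11.48 in the other siRNA-CONTROL arrays and 11.69 and 11.53 in the other untreated arrays. For SFRP1 the siRNA-CTNNB1 array lay below all of these others, and for LEF1 above every control array. For DKK1, BAMBI and TNFRSF19 it lay below the highest control array.

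Of 29 other genes named as beta-catenin targets in various tissues, 19 were higher and 10 lower, with a list median of 0.04, and 10 were above noise. One of the 10, S100A4, lay outside the range of the other arrays, a share no larger than the 20% of all genes above noise that did. This calcium-binding protein gene, tied to metastasis, had 12.26 in the siRNA-CTNNB1 array, against 12.75 with siRNA-CDC2, 12.81 with siRNA-CDC25B, 12.69 with siRNA-CDK7, 12.47 with siRNA-FOXO3A, 12.45 with siRNA-HSF2, 12.62 with siRNA-PCNA, 12.31 with siRNA-RB1 and 12.42 with siRNA-TCEA1. The array was lowest of the 9 by a narrow gap, the difference from the median was -0.29, and the limma adjusted p was 0.939. Controls spanned the value, with 12.67, 12.32 and 11.69 in siRNA-CONTROL and 12.70, 12.23 and 11.57 in untreated cells.

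Several well-known members of that list sat near the KD1 median, and MYC and JUN lay above it. CCND1 (cyclin D1) had 10.91 in the siRNA-CTNNB1 array, against 10.67 to 11.04 in the others. CD44, an adhesion receptor, differed by 0.02, BIRC5 (survivin) by 0.02 and MITF by -0.01. MYC, below noise, had 8.54 in the siRNA-CTNNB1 array, against 7.91 to 8.49, and JUN, also below noise, had 7.23, against 6.45 to 7.08, both higher than in all 8.

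On the receptor side of the pathway all members above noise lay on the same side of the KD1 median, though not of the control means. Of 30 measured ligands, receptors and Dishevelled genes, 6 were above noise, and all 6 were higher than the KD1 median, beside 63.2% of all genes above noise. Of the 6, 4 were higher than all 8 other arrays, beside the 14.7% of genes above noise that were. The median of the whole list was 0.04, the highest of the 9 KD1 arrays, whose other medians ran between -0.03 and 0.01. The median over all 19775 genes, at 0.01, was likewise the highest of the 9 in this array.

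FZD7, a Frizzled receptor, had 9.16 in the siRNA-CTNNB1 array, against 9.003 with siRNA-CDC2, 8.85 with siRNA-CDC25B, 8.95 with siRNA-CDK7, 8.70 with siRNA-FOXO3A, 8.82 with siRNA-HSF2, 8.48 with siRNA-PCNA, 8.72 with siRNA-RB1 and 8.83 with siRNA-TCEA1. Its difference was 0.34, and a second probe set below noise differed by 0.29. WLS, which carries Wnt ligands to the cell surface, had 9.36 in the siRNA-CTNNB1 array, against 8.996 to 9.22, and RYK, a Wnt-binding receptor, had 9.71, against 9.28 to 9.67. LRP6, the co-receptor, exceeded all 8 by a margin at the rounding of the values (9.15, against a highest of 9.14). WNT5A, a ligand of the non-canonical branch tied to invasive melanoma, differed by 0.24 and FZD6 by 0.24, both within the range. None of the 6 passed limma, where FZD7 had an adjusted p of 0.904. The control groups spanned the FZD7 value, with 8.73, 9.19 and 7.84 in siRNA-CONTROL and 9.95, 9.21 and 7.74 in untreated cells. Against the untreated mean 3 of the 6 turned lower, FZD6 by -0.31, RYK by -0.17 and LRP6 by -0.11, and FZD6 (-0.17) and RYK (-0.01) were also below the siRNA-CONTROL mean. The median of the whole list was 0.07 against siRNA-CONTROL, 0.13 against untreated cells and -0.040 against siRNA-CONTROL arrays 1 and 2.

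In the destruction complex and turnover list, 16 of 23 measured genes were above noise, with 11 higher and 5 lower. Over all genes above noise 63.2% were higher. Of the 16, 2 (APC and FBXW11) were higher than in all 8 other KD1 arrays, beside 14.7% of all genes above noise. APC, the scaffold of the complex, had 8.65 in the siRNA-CTNNB1 array, against 8.18 to 8.58 in the other KD1 arrays, a difference of 0.25. FBXW11, a ubiquitin ligase subunit that recognises phosphorylated beta-catenin, had 9.99, against 9.63 to 9.89, a difference of 0.16. GSK3B differed by 0.09, within the range, and the casein kinase genes CSNK1E and CSNK1D by -0.25 and -0.19, also within it. The APC probe sets did not move alike, since of 4 further ones, all below noise, 2 were higher and 2 lower than the KD1 median.

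Among TCF/LEF factors and nuclear partners, 15 of 27 genes were above noise. Of the 15, 2 were higher than in all 8 other KD1 arrays, beside 14.7% of all genes above noise. RUVBL1, a helicase that binds beta-catenin, had 10.90 in the siRNA-CTNNB1 array, against 10.66 to 10.84, and CDC73, a Polymerase II elongation factor subunit, had 9.07, against 8.71 to 9.05, both above all 8. TCF7L2, the main TCF factor above noise here, had 11.45 in the siRNA-CTNNB1 array and a highest of 11.45 in the others. CREBBP, a coactivator, differed by 0.24 and lay within the range.

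Of 27 measured genes in the list of adherens junction and cadherin genes, 13 were above noise. CDH19 and LIMA1 were lower and DSG2, VCL and IQGAP1 higher than in all 8 other KD1 arrays, which is 2 and 3 of 13 beside the 5.31% and 14.7% of all genes above noise. CDH19, a cadherin of the neural crest lineage, had 9.65 in the siRNA-CTNNB1 array, against 9.74 to 10.18. VCL, which encodes vinculin, had 9.95, against 9.66 to 9.92. CTNNA1, the alpha-catenin that binds beta-catenin directly, differed by 0.00 and the N-cadherin gene CDH2 by 0.03, while CDH1, the E-cadherin gene, was below noise at 3.48 in the siRNA-CTNNB1 array and 3.45 to 4.07 in the others.

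**Figure D4:**
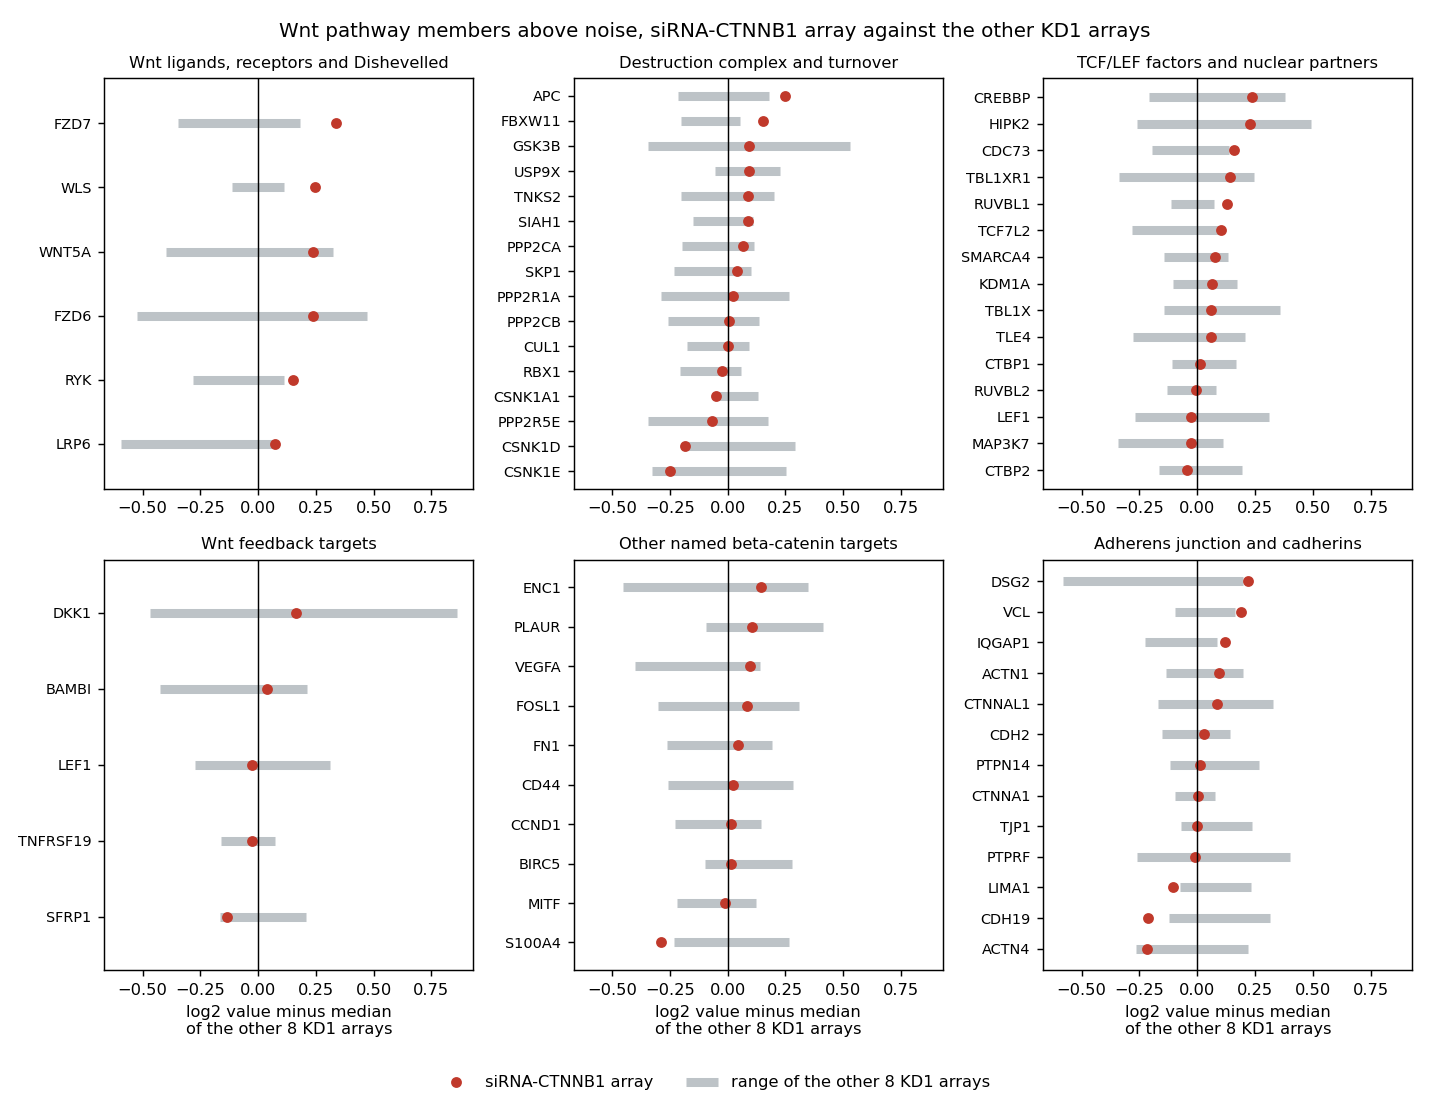
Members of 6 Wnt pathway lists above noise, as the log2 value in the siRNA-CTNNB1 array minus the median of the other 8 KD1 arrays (point) with the range of those 8 (bar). All 5 feedback targets lie inside their bars, the 6 receptor-side genes all lie right of zero, and S100A4, CDH19 and LIMA1 lie left of their bars.

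Of the pigment cell lineage genes, 6 of 19 were above noise. None of the 6 lay outside the range of the other KD1 arrays, beside 20% of all genes above noise. MITF, whose promoter stretch is printed above, had 9.21 in the siRNA-CTNNB1 array, against a lowest of 9.004 and a highest of 9.35 in the others. SOX10, its upstream activator, differed by 0.07 and EDNRB, the endothelin receptor gene, by 0.07.

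Some lists outside the pathway had their highest median of the 9 KD1 arrays in the siRNA-CTNNB1 array. The cytokine and NF-kappaB list had a median of 0.20 (13 of 19 higher), against -0.10 to 0.14 in the other arrays. Only 3 of these 19 genes were above noise, 2 higher and 1 lower, so that median rests mostly on dim genes. Besides CXCL8, IL24, a cytokine gene, had 9.31 in the siRNA-CTNNB1 array, against 8.62 to 9.07. Of the ATF4 and CHOP stress list, 16 of 22 were higher with a median of 0.11, where ASNS (asparagine synthetase) had 10.16, against 9.57 to 10.07, while ATF4 itself had 11.44, against 11.52 to 11.75. Ribosome biogenesis (22 of 26 higher, median 0.11) and death receptor apoptosis (9 of 12, median 0.16) were also at their highest. Above noise were 14 of the 22 stress genes, 21 of the 26 ribosome biogenesis genes and 5 of the 12 death receptor genes. The median of all genes was at its highest of the 9 arrays here too, with 0.01 over all 19775 and 0.05 (63.2% higher) over the 4800 above noise. The hypoxia and glycolysis list (15 of 24 higher, median 0.05) lay at that background.

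Against the siRNA-CONTROL mean the cytokine list had a median of -0.21 and the stress list one of -0.60, the opposite direction in both. The third siRNA-CONTROL array carried high values of both, for example 13.04 for ASNS, against 9.84 and 9.48 in the other siRNA-CONTROL arrays. Without that array both lists kept the direction seen in KD1.

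**Figure D5:**
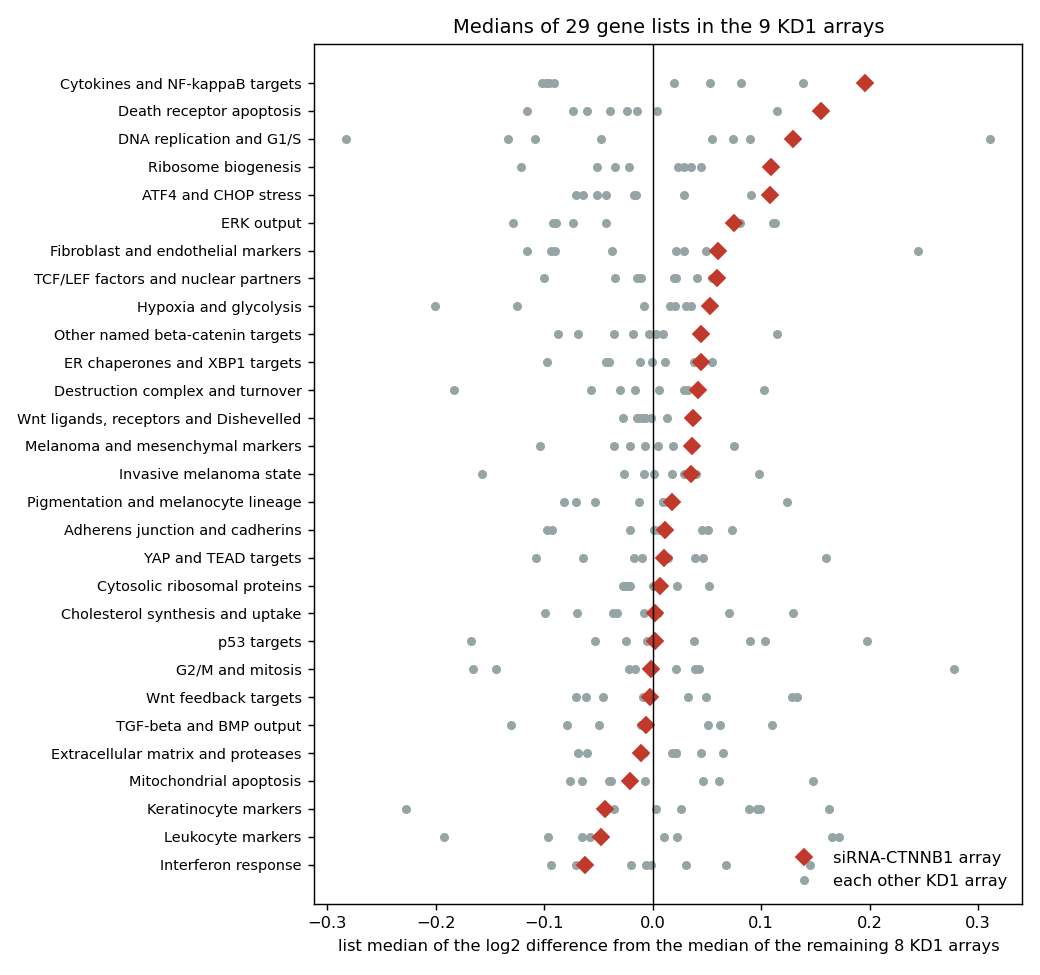
Median log2 difference of 29 gene lists in the siRNA-CTNNB1 array (diamond) and in each other KD1 array (points), each array against the median of the remaining 8. The cytokine list, at 0.20, and the ATF4 and CHOP list, at 0.11, lie right of all other arrays, while the Wnt feedback list, at -0.00, lies in the middle. Medians include members below noise, and only 3 of the 19 cytokine genes were above it.

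Cell cycle lists did not set the array apart. Of 47 DNA replication and G1/S genes, 37 were higher with a median of 0.13, within the -0.28 to 0.31 of the other KD1 arrays. Of the 28 above noise, 1 was higher than in all 8, beside 14.7% of all genes above noise. The G2/M list had a median of -0.00, with TOP2A at -0.36 and KIF23 at 0.51, both within the range.

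The promoter motif was counted over the same groups as a description. None of 22 promoter windows of the genes lower at 1.3-fold held ATCAAAG on either strand, and 1 of 69 windows of the higher genes did, that of CXCL8. Of 11 windows of the feedback targets 1 did (SP5), and of 36 windows of the other named targets 3 did (FGF18, MITF and POU3F2). Beside these stand 1.42% of windows of all genes above noise and 2.62% of all windows. The windows cover only 9 of the 17 feedback targets and 19 of the 29 other named targets, and most members of both lists were below noise.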

How the data were processed

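RNA of A375 cells was hybridised to 45 Affymetrix U133 plus 2.0 arrays. The deposited values are linear intensities that the authors made with RMA, whose version is not given in the sources used here, and they were taken to log2 with no further normalisation. Groups came from the sample labels and batches from the study's listing of arrays. Members and gene lists were chosen with earlier results of these data known. Of 54675 probe sets, 41097 had 1 gene name, 1801 several and 11777 none, and symbols were updated through Entrez identifiers. The resulting 19775 genes were each represented by their probe set with the highest mean.

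A gene was called where the siRNA-CTNNB1 array differed at least 1.5-fold from the median of the other 8 KD1 arrays and lay outside their range. Genes whose median over the 45 arrays was below 1.5 times that of the BioB spike-in (its 3' probe set) were left out, which kept 4800. limma 3.58.1 (R 4.3.3) compared the array with the mean of the other 8, with Benjamini-Hochberg adjustment over 54613 probe sets and a threshold of 0.05. It takes the lone array to vary like the 8, whose spread holds the effects of their own siRNAs. Nothing says whether the control arrays came from separate cultures, so their SD may be technical. The number of arrays limits the precision. Python 3.11.15 with pandas 2.3.3 and numpy 2.4.6 did the rest.

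Genes were named by rule: CTNNB1 and JUP, all called genes, and the 3 (Wnt lists) or 2 (others) highest and lowest members above noise of each list. Genes outside this rule are said to be so where named, except pathway members given for their known role. Alternatives varied the comparison arrays, the arrays left out, the normalisation, the probe set, the noise limit, the fold and the range condition. Enrichment of the lists was not tested.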

Additional observations from a re-analysis of the deposited data

Results flagged for a closer look

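Over the other 8 KD1 arrays, 13 of the 114 genes named by the rule had 1 array far from the rest, its gap to the next value being a larger part of the whole range than Dixon's critical value allows. Chance alone flags about 1 in 20 such groups. The siRNA-PCNA array held 4 of the 13, the siRNA-CDK7 array 3, the siRNA-HSF2 and siRNA-RB1 arrays 2 each, and the siRNA-CDC2 and siRNA-FOXO3A arrays 1 each.

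CTNNB1 itself was one of them, with 10.23 in the siRNA-PCNA array and a next value of 9.35, a gap of 0.786 of the range. In the same array LRP6 was lowest (0.620), as were HK2 (0.814), a glycolytic kinase, and TIMP3 (0.529), a protease inhibitor. The siRNA-CDK7 array was highest for LIMA1 (0.586), TEAD1 (0.532) and DNAJC3 (0.557). The siRNA-HSF2 array was lowest for MAP3K7 (0.586) and DSG2 (0.558). The siRNA-RB1 array was highest for CRIM1 (0.776) and lowest for IFITM3 (0.757), the siRNA-CDC2 array highest for PLAUR (0.592) and the siRNA-FOXO3A array lowest for RYK (0.534).

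The spread behind the limma error of CTNNB1 holds the siRNA-PCNA array. The SD of the 8 arrays was 0.37 with it, and the log2 difference kept its direction without it.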

How the results depend on the processing

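CTNNB1 stayed lower by -0.74 to -0.65 when each of the other 8 KD1 arrays was left out in turn, and it stayed lower with every comparison group tried, down to -0.88. With the probe set of largest variance, or the median over its 3 probe sets, it read 0.23, which is the dim probe set 223679_at in both cases. Leaving out 1 array at a time gave 1 to 3 higher and 4 to 6 lower genes and 0 to 4 limma calls. In each of these the 5 genes of the main comparison were called again. CXCL8 and RASEF were lost after batch centring, CXCL8 and CTNNB1 with the probe set of largest variance, and CXCL8, CTNNB1 and RASEF with the median over probe sets.

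Counts of calls moved with the setting. Higher genes numbered 2 against the mean of 8, 179 against siRNA-CONTROL, 318 against untreated, 46 against siRNA-CONTROL arrays 1 and 2, 0 against the 38 other siRNA arrays after batch centring, 171 with no filter, 39 at a log2 limit of 6, 0 at 2-fold, 54 at 1.3-fold and 2 without the siRNA-PCNA and siRNA-RB1 arrays. Lower genes numbered 55, 109 and 25 against those control groups, 110 with no filter, 41 at a limit of 6, 0 at 2-fold, 18 at 1.3-fold and 8 without these 2 arrays. The 1.3-fold, siRNA-CONTROL 1 and 2 and 2-array settings were chosen after seeing the data. limma called 289 probe sets with all 39 arrays, 0 among probe sets above noise (260 at an unadjusted p under 0.05, and 3074 in the main fit) and 0 with a trend (2846).

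The Wnt feedback median moved to 0.21 against siRNA-CONTROL, 0.15 against untreated and 0.16 against siRNA-CONTROL 1 and 2, and ran from -0.01 to 0.04 with 1 array left out. The other named targets moved to 0.30, 0.25 and 0.17, with 0.04 to 0.09. A median counted as reversed only if its main size was at least the SD of that list's medians in the other 8 KD1 arrays. Reversed medians were those of CTNNB1 with JUP (0.091 with either other choice of probe set), TCF/LEF partners (-0.026, largest variance) and Wnt receptors (-0.040, siRNA-CONTROL 1 and 2). Against siRNA-CONTROL and untreated, those of ATF4 and CHOP stress (-0.60 and -0.56) and cytokines (-0.21 and -0.058) were reversed too. Smaller medians also changed sign in some settings, among them those of the destruction complex (0.04, down to -0.06) and interferon lists (-0.06, up to 0.05). The cause was not tested. No paired analysis was possible, because each KD1 siRNA was used in 1 culture with 1 array and no label pairs the arrays. Signal over background limits the dim genes, and a single culture limits every value.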
